A study of Arabidopsis thaliana with 6 samples.

Results

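Cytochrome P450 enzymes are haem-thiolate monooxygenases, most of them anchored in the endoplasmic reticulum, which insert an oxygen atom into small lipophilic molecules with electrons passed on from an NADPH-dependent reductase. In plants they act in the synthesis and breakdown of hormones, sterols, phenolics, terpenoids and defence compounds, and they are named by sequence into numbered families and lettered subfamilies. The CYP71B subfamily is one of the larger ones in Arabidopsis and lies largely in tandem gene arrays. Its best known enzyme, PAD3 (CYP71B15), completes the synthesis of the defence compound camalexin.

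The P450 genes described here were those whose RefSeq symbol is CYP followed by a family number and a subfamily letter and which had a probe set assigned to a single gene. By this rule, 23 genes were found, each with 1 probe set, among 13286 genes that could be named by their own probe set and 22746 probe sets in all. RefSeq holds 236 symbols of this pattern. A single gene was assigned to 13513 probe sets only, so that further P450 genes may lie among the unnamed probe sets, and the other P450 genes were not analysed here, including those of 2 probe sets that carry several genes. Of the 23 genes, 19 belonged to family 71, all of subfamily CYP71B, and families 51, 78, 79 and 84 had 1 gene each (CYP51G2, CYP78A9, CYP79A2 and CYP84A4). CYP71B27 and CYP51G2 are annotated as transcribed pseudogenes and the other 21 as protein coding, although the final letter of CYP71B30P marks a pseudogene in P450 nomenclature. None of the probe sets was of the types marked as possibly cross-hybridizing.

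Transcripts were measured in whole seedlings on Affymetrix arrays, with 3 arrays of 35S::OsHOX24 and 3 arrays of wild type (WT), all of them ecotype Columbia, 10 days old and grown on MS medium without stress. The transgenic seedlings were of 1 line, HZIP1-2.3 by the paper, which carries the rice homeobox gene OsHOX24 behind the constitutive CaMV 35S promoter, whereas WT carried no construct. The paper calls the arrays independent biological replicates, and whether several seedlings made up a sample is not given in the sources used here. Signals are MAS5 values on the log2 scale, and every array had been scaled to the same trimmed mean (500.05 to 500.06, linear). Array medians were 7.24 to 7.42 (log2), and correlations between arrays were 0.928 to 0.955. The leaf marker RCA, which encodes Rubisco activase, had signals of 14.37 to 14.74 (log2) in the 35S::OsHOX24 arrays and of 14.28 to 14.70 in the WT arrays, whereas AT5G07430, taken as a pollen marker, was at or below 2.71 in all 6 arrays. OsHOX24 itself is a rice gene and was not checked on these arrays.

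Most of the measured P450 genes gave signals in the lower part of the range. By mean over all 6 arrays and with all probe sets divided into 4 signal classes of equal size, 8 of the 23 lay in class 1 (lowest), 10 in class 2, 4 in class 3 and 1 in class 4 (highest). Family 71 spanned all 4 classes, with means of 1.27 to 10.42 (log2) and a median of 6.58. The single genes of families 51, 78 and 84 lay in class 2 and that of family 79 in class 1. Probes differ in affinity, so these positions say where a gene sits on the scale of the array and do not rank transcript abundance between genes. Between 3 and 4 P450 genes exceeded the median of all probe sets in each 35S::OsHOX24 array, and 4 to 7 did so in each WT array.

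**Figure D1:**
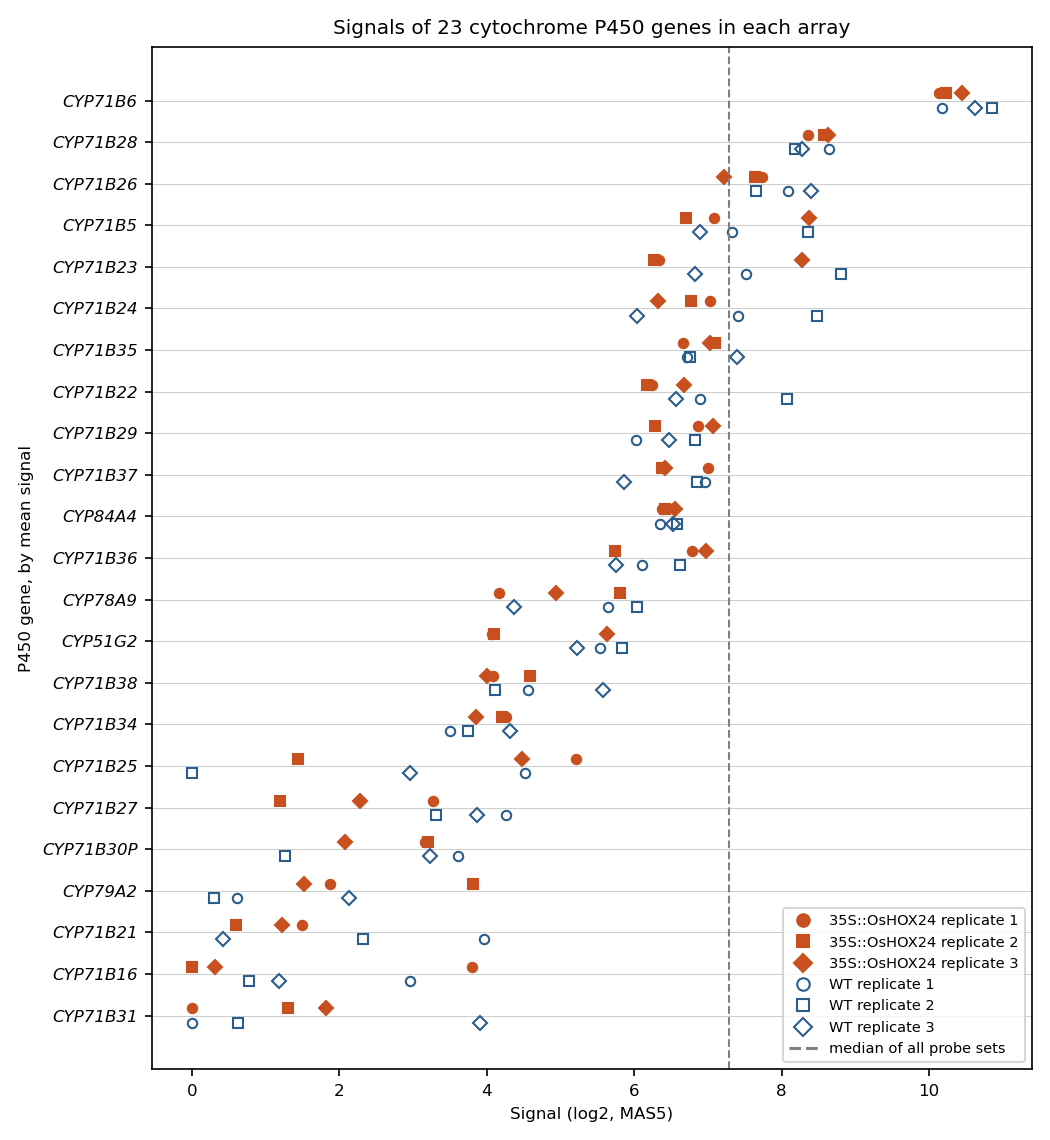
MAS5 signal (log2, horizontal axis) of the 23 P450 genes in each array, with 35S::OsHOX24 as filled symbols above WT as open symbols, replicate number by symbol shape, and genes ordered by mean signal. The dashed line is the median of all probe sets (7.29); 5 genes have a mean above it, and CYP71B27 is the gene whose genotypes do not overlap.

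CYP71B6, which oxidizes indole-3-acetonitrile in indolic defence metabolism, was the one P450 gene in the highest signal class. Its signals were 10.14, 10.24 and 10.45 (log2) in 35S::OsHOX24, against 10.18, 10.86 and 10.62 in WT. The genotypes overlapped, and the difference of -0.28 (log2) had a 95% interval of -0.92 to 0.37, which lay within 2-fold in both directions. CYP71B28, in signal class 3, had 8.36, 8.58 and 8.63 in 35S::OsHOX24 and 8.64, 8.18 and 8.28 in WT, a difference of 0.16 (95% interval -0.42 to 0.73). The narrowest spread was that of CYP84A4, an enzyme of arabidopyrone synthesis, with 6.38, 6.42 and 6.55 in 35S::OsHOX24 against 6.35, 6.59 and 6.52 in WT. Its difference of -0.04 had an interval of -0.54 to 0.47. CYP71B34, CYP71B35 and CYP71B37 also had intervals within 2-fold in both directions, which makes 6 such genes, whereas the intervals of the other 17 reached 2-fold in at least 1 direction.

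To learn whether the P450 genes respond to OsHOX24, 35S::OsHOX24 was compared with WT by limma over all probe sets. No P450 gene passed an adjusted p of 0.05 (lowest adjusted p = 1), nor did any probe set of the array, while 1 P450 gene and 785 probe sets had an unadjusted p under 0.05. With the cut-offs of the study (a change of 2-fold or more with unadjusted p no higher than 0.05), 1 of the 23 P450 genes was lower in 35S::OsHOX24 (4.35%) and 0 were higher, beside 1.61% of all probe sets lower and 0.914% higher. The same gene was the only one with every 35S::OsHOX24 array below every WT array, where 4.13% of all probe sets had this separation, and no P450 gene was separated in the other direction, beside 3.04% of all probe sets. Counts this small cannot be told from the background. In seedling extracts, fewer cells expressing a gene and less RNA per cell cannot be told apart.

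That gene was CYP71B27 (AT1G13070), one of the annotated pseudogenes. Its signals were 3.27, 1.19 and 2.28 (log2) in 35S::OsHOX24, against 4.27, 3.31 and 3.87 in WT, or 2.3 to 9.6 against 9.9 to 19.2 on the linear scale. The gap between the genotypes was narrow, with the highest transgenic array just below the lowest WT array. CYP71B27 was 2.97-fold lower, a difference of -1.57 (log2, standard error 0.57, 95% interval -2.97 to -0.17), and its adjusted p with limma was 1. A 2-sided exact permutation test of its 6 arrays gave p = 0.1, the smallest p that this number of arrays allows. Any gene whose genotypes do not overlap gets this p, so the test adds nothing to the separation. All its signals were in the lowest part of the array scale, and with log2(signal + 16) the difference was -0.51. This call was lost there, with a t-test as named in the methods, with a variance trend, and without 35S::OsHOX24 replicate 2 or 3 or WT replicate 1 or 3.

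**Figure D2:**
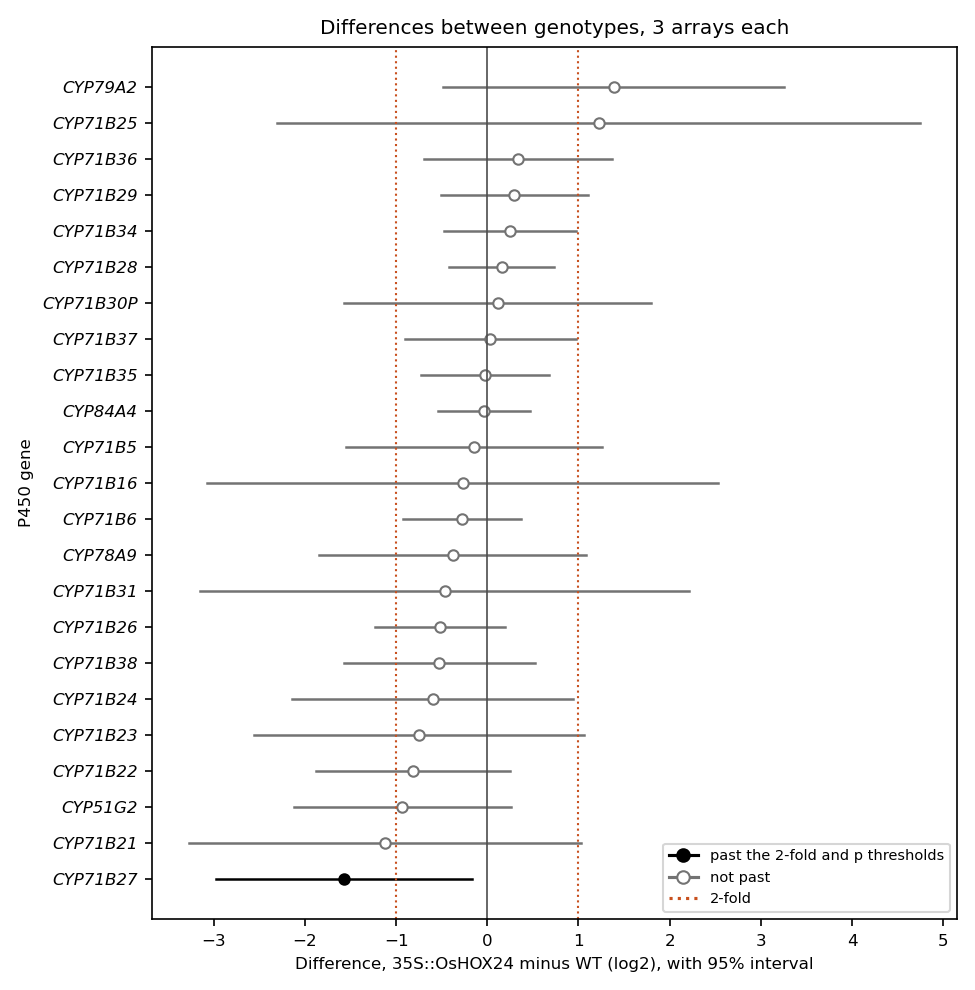
Difference between 35S::OsHOX24 and WT (log2, horizontal axis) with the 95% interval of the limma fit for each P450 gene, with 3 arrays per genotype. CYP71B27 (filled, -1.57) is the only gene past the thresholds, and its interval ends at -0.17; dotted lines mark 2-fold.

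CYP79A2, CYP71B25 and CYP71B21 differed by at least 2-fold without passing the thresholds. For CYP79A2, which makes phenylacetaldoxime from phenylalanine in benzyl glucosinolate synthesis, the signals were 1.87, 3.81 and 1.52 (log2) in 35S::OsHOX24, against 0.61, 0.29 and 2.13 in WT (difference 1.39, 95% interval -0.48 to 3.26). Only transgenic replicate 2 lay above all WT arrays. CYP71B25 had 5.22, 1.43 and 4.48 in 35S::OsHOX24 and 4.51, 0 and 2.95 in WT, so that replicate 2 was the low array in both genotypes. Its difference of 1.22 lost its sign (-0.02) once WT replicate 2 was omitted, and came to 2.36 when the transgenic replicate 2 was left out instead. CYP71B21 had 1.49, 0.60 and 1.22 in 35S::OsHOX24, against 3.96, 2.31 and 0.42 in WT. These genes were in the lowest signal class and overlapped between genotypes. CYP51G2, a paralogue of the sterol demethylase gene CYP51G1, had signals of 4.07, 4.10 and 5.64 in 35S::OsHOX24 and of 5.53, 5.84 and 5.23 in WT (difference -0.93, 95% interval -2.12 to 0.26). Transgenic replicates 1 and 2 lay below every WT array and replicate 3 did not, and without replicate 3 CYP51G2 was past the thresholds.

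Across the 23 genes the mean was lower in 35S::OsHOX24 than in WT for 15 (65.2%) and higher for 8, where 53.6% of all probe sets had a lower mean. The median difference was -0.27 (log2), beside -0.03 over all probe sets. After quantile normalization these medians were -0.15 and -0.001, and 14 P450 genes had a lower mean, beside 50.2% of all probe sets. In the lowest signal class 4 of 8 genes had a lower mean, beside 55.6% of all probe sets there. In the upper 3 classes it was 11 of 15, beside 57%, 52.2% and 49.5% of all probe sets in classes 2, 3 and 4. The sign of many single genes depended mainly on which arrays were used, and 10 of the 23 changed sign under at least 1 of the 14 alternatives. With all arrays kept, quantile normalization turned CYP84A4 (0.021), and log2(signal + 16) turned CYP71B16 (0.062) and CYP71B30P (-0.017). The t-test, the variance trend, the filters on probe sets and a block for replicate number leave each difference unchanged by construction. Only the other alternatives could turn a sign. Under all of the alternatives in which they were measured, 8 genes stayed below WT and 5 above it. The 8 were CYP51G2, CYP71B6, CYP71B21, CYP71B22, CYP71B23, CYP71B26, CYP71B27 and CYP71B38. The 5 were CYP71B28, CYP71B29, CYP71B34, CYP71B36 and CYP79A2. For CYP71B27, whose genotypes did not overlap, only quantile normalization could have turned the sign. How many of all probe sets kept their sign was not counted. Of the 8 lower genes, CYP71B22 had 6.25, 6.17 and 6.68 in 35S::OsHOX24 against 6.90, 8.07 and 6.57 in WT. CYP71B26 had 7.73, 7.64 and 7.23 in 35S::OsHOX24 against 8.09, 7.65 and 8.40 in WT. CYP71B26 came close to separation, with transgenic replicate 1 just above WT replicate 2, and its difference was -0.52 (95% interval -1.23 to 0.20).

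Among lists of P450 genes by pathway, few had a probe set assigned to them alone, and the others may still lie among the unnamed probe sets. Of 20 listed genes of glucosinolate and camalexin synthesis 2 could be named (CYP79A2 and CYP71B6), of 7 phenylpropanoid genes 1 (CYP84A4), of 8 sterol genes 1 (CYP51G2), of 12 terpene and triterpene genes 1 (CYP71B31) and of 6 CYP78A genes 1 (CYP78A9). None of them was past the thresholds in either direction. CYP78A9, known for its effect on the size of fruits and seeds, had 4.16, 5.81 and 4.93 (log2) in 35S::OsHOX24, against 5.65, 6.03 and 4.37 in WT (difference -0.38). CYP71B31, which oxidizes linalool, was listed at 0 in 1 array of each genotype and reached 1.81 in 35S::OsHOX24 and 3.90 in WT. The listed P450 genes of brassinosteroid, gibberellin, abscisic acid, jasmonate, cytokinin, strigolactone, carotenoid, cutin and suberin metabolism, and the P450 reductases and cytochrome b5 genes, were not analysed here.

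For each of the 23 P450 genes the range of the 3 arrays of at least 1 genotype exceeded the size of the difference between genotype means. These are unlike measures, and how often this held over all probe sets was not counted. The median SD within genotypes was 0.67 (log2) for the P450 genes and 0.45 for all probe sets, and the gap differed between signal classes. In class 1 the medians were 1.203 for the P450 genes and 1.17 for all probe sets, in class 2 they were 0.57 and 0.48, and in class 3, with 4 P450 genes, 0.57 and 0.34. The P450 gene of class 4, CYP71B6, had an SD of 0.27, beside a median of 0.29. With all probe sets divided into 40 bins of equal size by signal, 12 of the 23 genes had an SD above the median of their bin, 4 above its 90th percentile and 3 below its 10th percentile. The 4 above were CYP71B5, CYP71B23, CYP71B24 and CYP71B25, and the 3 below were CYP71B27, CYP71B34 and CYP84A4. The SD of CYP71B27 was 0.81, low for its bin but above the 0.45 of all probe sets, and its 35S::OsHOX24 arrays ranged over 2.08 (log2). Because CYP71B27 had been singled out by its p, which is lower where the SD is small, its place below the bin is a description only.

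**Figure D3:**
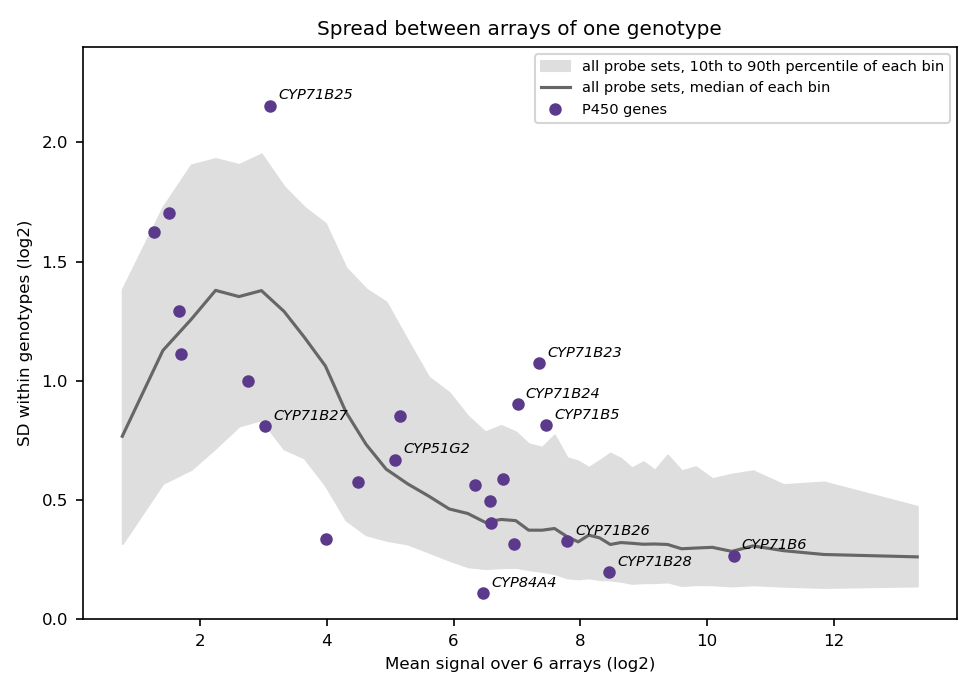
SD between arrays of a genotype, pooled over both genotypes (log2, vertical axis), against the mean signal over 6 arrays (log2). Points are the 23 P450 genes; the grey line and band are the median and the 10th to 90th percentile of all probe sets in 40 bins of signal, and CYP71B23 (SD 1.07), CYP71B24 (0.90), CYP71B5 (0.81) and CYP71B25 (2.15) lie above the band.

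CYP71B23 had signals of 6.34, 6.27 and 8.28 (log2) in 35S::OsHOX24, against 7.52, 8.81 and 6.83 in WT. CYP71B5 had 7.09, 6.71 and 8.37 in 35S::OsHOX24 and 7.33, 8.36 and 6.90 in WT. In both genes, transgenic replicate 3 and WT replicate 2 were the high arrays. The range within a genotype was 2.01 in 35S::OsHOX24 and 1.98 in WT for CYP71B23, against a difference of -0.75 between genotypes, and 1.66 and 1.46 for CYP71B5, against a difference of -0.14. CYP71B24 shared the high signal of WT replicate 2 but not that of transgenic replicate 3, with 7.03, 6.77 and 6.33 in 35S::OsHOX24 and 7.40, 8.49 and 6.04 in WT.

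The pattern noticed in CYP71B23 and CYP71B5 was then counted over all P450 genes, these included. In 8 of the 23 genes (34.8%), replicate 3 was the highest 35S::OsHOX24 array and replicate 2 the highest WT array, beside 16.8% of all probe sets, and all 8 were among the 15 genes above the lowest signal class (53.3%, beside 19.2% of all probe sets there). The genes were CYP51G2, CYP71B5, CYP71B6, CYP71B22, CYP71B23, CYP71B29, CYP71B36 and CYP84A4. It is 1 of 9 possible pairs of highest arrays and was chosen after the values were seen, so its count is a description. The next most frequent pair was replicate 1 in both genotypes, with 5 of the 23 genes (21.7%), beside 13.1% of all probe sets, and 4 of these 5 lay in the lowest signal class. In CYP84A4 and CYP71B6 the ranges were small, at most 0.68 (log2) within a genotype. Over all probe sets, the deviations of these 2 arrays from their genotype means correlated with r = 0.29 across probe sets, the highest of the 9 pairs of arrays from different genotypes, and probe sets are not independent replicates.

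**Figure D4:**
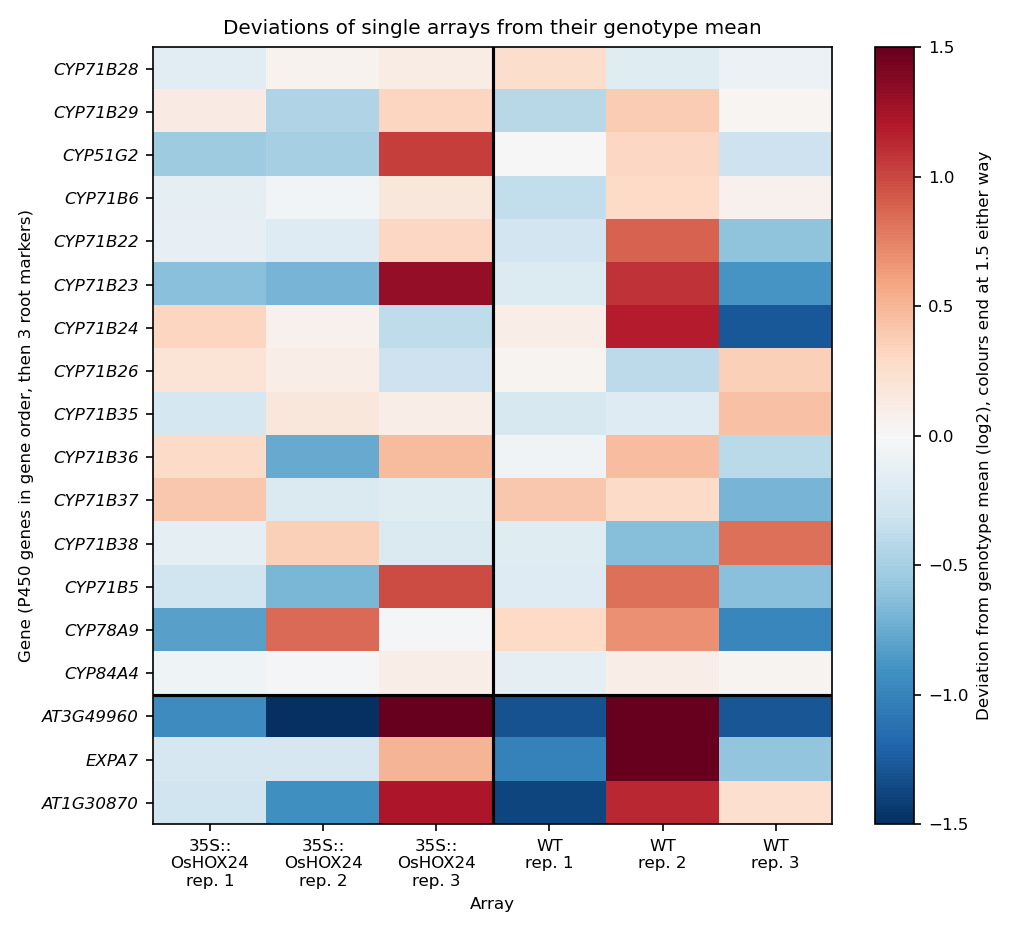
Deviation of each array from the mean of its genotype (log2, colour), for the 15 P450 genes above the lowest signal class in gene order and, under the line, 3 root markers; columns are the 35S::OsHOX24 arrays, then the WT arrays. CYP71B23 is 1.32 above its mean in 35S::OsHOX24 replicate 3 and 1.09 above it in WT replicate 2, and the 3 root markers are high in the same arrays.

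Markers of roots moved with these arrays. All 3 of the root markers that could be named, of 9 listed, were highest in 35S::OsHOX24 replicate 3 and WT replicate 2 of their genotypes. Of all probe sets, 16.8% had this pair of highest arrays. The genotype means of AT3G49960 (2.975 in 35S::OsHOX24 and 1.798 in WT) lay below 4.46, the upper limit of the lowest signal class. Those of EXPA7 (4.94 and 3.87) lay on either side of it. In that class the median SD of all probe sets was 1.17. AT3G49960, a root peroxidase gene, had 2.03, 0.68 and 6.21 (log2) in 35S::OsHOX24 and 0.49, 4.38 and 0.52 in WT. EXPA7, a root hair expansin, had 4.69, 4.70 and 5.45 in 35S::OsHOX24 and 2.86, 5.47 and 3.28 in WT, and the peroxidase gene AT1G30870 had 5.01, 4.39 and 6.53 in 35S::OsHOX24 and 3.65, 6.16 and 5.28 in WT. The control probes of RNA integrity set both arrays apart for GAPDH, but not in the same way for actin or ubiquitin. The excess of 3' over 5' signal, which grows where fewer 5' ends are read, was lowest for GAPDH in these arrays, at 2.39 (log2) in 35S::OsHOX24 replicate 3, against 3.29 and 3.63 in the other transgenic arrays, and at 1.63 in WT replicate 2, against 3.25 and 4.80 in the other WT arrays. For actin, however, 35S::OsHOX24 replicate 3 had the highest excess of the transgenic arrays (6.57, against 6.42 and 6.01) and WT replicate 2 the lowest of the WT arrays (5.37, against 6.27 and 6.84). For ubiquitin, 35S::OsHOX24 replicate 3 lay between the other transgenic arrays (3.42, against 3.67 and 3.40), and WT replicate 2 had 2.76, against 2.78 and 3.58. The part of root tissue or of RNA quality in the P450 signals was not tested. Without both arrays, a choice made after seeing the data, 1 P450 gene was past the thresholds and lower, CYP51G2, beside 573 of all 22746 probe sets. In that fit 16 of the 23 had a lower mean, beside 53.2% of all probe sets.

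Most of the CYP71B genes lie next to each other, in 3 stretches of the RefSeq gene order. The longest, from CYP71B16 to CYP71B37, holds 25 annotated genes, of which 18 have CYP71B symbols and 11 had a named probe set. Differences between 35S::OsHOX24 and WT in this stretch were -1.12 to 1.22 (log2) with a median of -0.27, and 7 of the 11 were below 0. Over all probe sets the median was -0.03 and 53.6% were below 0. Both extremes, CYP71B21 and CYP71B25, lay in the lowest signal class. Whether these genes shared a common shift was not tested. Which WT array was highest changed along the stretch. WT replicate 1 was highest for CYP71B16 and CYP71B21, WT replicate 2 for CYP71B22, CYP71B23 and CYP71B24, WT replicate 1 for CYP71B25, WT replicate 3 for CYP71B26, CYP71B34 and CYP71B35, WT replicate 2 for CYP71B36 and WT replicate 1 for CYP71B37. At the far end, CYP71B35 had 6.67, 7.10 and 7.03 in 35S::OsHOX24 and 6.72, 6.76 and 7.40 in WT, and CYP71B36 had 6.79, 5.74 and 6.98 in 35S::OsHOX24 against 6.11, 6.63 and 5.76 in WT. CYP71B37 had 6.998, 6.37 and 6.41 in 35S::OsHOX24 against 6.97, 6.85 and 5.86 in WT. WT replicate 3 was thus the highest WT array for CYP71B35 and the lowest for its neighbours CYP71B36 and CYP71B37.

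The second stretch, from CYP71B27 to CYP71B29, holds 4 CYP71B genes, of which 3 had a named probe set. CYP71B27 was the gene past the thresholds, whereas its neighbours CYP71B28 and CYP71B29 had differences of 0.16 and 0.30. CYP71B29 had 6.87, 6.29 and 7.07 (log2) in 35S::OsHOX24 and 6.03, 6.83 and 6.47 in WT. The difference between neighbours was not tested. The third stretch, from CYP71B5 to CYP71B31, held 3 measured genes. Of these CYP71B5 lay in signal class 3, and CYP71B30P and CYP71B31 in class 1. CYP71B30P had 3.16, 3.20 and 2.07 in 35S::OsHOX24 and 3.60, 1.26 and 3.23 in WT, so that WT replicate 2, the high WT array of CYP71B5, was its low one. CYP71B6 and CYP71B38 stand alone, and CYP71B38 had 4.08, 4.59 and 4.005 in 35S::OsHOX24, against 4.57, 4.11 and 5.58 in WT (difference -0.53). Of the longest stretch, CYP71B16 had 3.79, 0 and 0.31 in 35S::OsHOX24 and 2.96, 0.77 and 1.19 in WT, with replicate 1 the high array of both genotypes. In the same stretch, CYP71B34 had 4.25, 4.20 and 3.85 in 35S::OsHOX24 and 3.50, 3.75 and 4.32 in WT.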

How the data were processed

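The authors hybridized 3 arrays per genotype with the Affymetrix 3' IVT kit and computed signals with MAS5, whose version is not known here. The deposited values are log2 signals; their linear 2% trimmed mean is the same in every array, so each array had been scaled. From these, 22746 probe sets were tested after 64 control rows had been set aside. The fit used R 4.3.3 and limma 3.58.1 without covariates, and Benjamini-Hochberg adjustment ran over the whole table. A gene was past the thresholds when it changed 2-fold or more with unadjusted p no higher than 0.05. These are the cut-offs of the study, but the p here came from limma. Detection calls were not used here, and the number of arrays limits the precision. Genes came from the platform table, with symbols updated through RefSeq (TAIR10.1); CYP71 and CYP59, which are cyclophilin symbols, do not match the P450 rule. Sequences and coordinates are not given.

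All 23 P450 genes are named, so the rule for naming genes (calls, list members, highest signals, largest spread) left none of them out. The members and gene lists were chosen with earlier results of these data known. The P450 genes with another symbol and their partners were sought by symbol, and none was used, because the matching symbols (LCR, FAC1) belong to other genes. Alternatives were a t-test as named in the methods, a variance trend, quantile normalization, log2(signal + 16), a filter that kept signals above the 40th percentile, omission of probe sets that may cross-hybridize, a replicate block, and omission of each array in turn. Omission of WT replicate 2 with 35S::OsHOX24 replicate 3 and the count of genes with a lower mean were added after seeing the data. The scripts were tested on simulated data.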

Additional observations from a re-analysis of the deposited data

How the results depend on the processing

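The count of P450 genes lower past the thresholds was 1. It was 0 with the methods' choice of test, with a variance trend, with log2(signal + 16) and above the 40th percentile of signal. In that last fit 11 P450 genes stayed, without CYP71B27, and 8 of them had a lower mean, beside 51.5% of all its probe sets. Leaving out single arrays gave 0 to 2 lower and 0 to 1 higher, a median difference of -0.363 to -0.063 (log2) and 13 to 15 genes with a lower mean. Over all 22746 probe sets the same fits gave 347 to 494 lower, 220 to 316 higher and 50.6% to 56.1% with a lower mean. The array that changed the calls most was WT replicate 3, without which CYP71B21 and CYP71B24 were lower, CYP79A2 was higher and CYP71B27 was not past the thresholds. With the replicate number as a block, 1 P450 gene was higher (CYP71B25) and 1 lower, beside 259 higher and 419 lower of all 22746 probe sets. The numbers were to be taken as pairs only if the deviations of same-numbered arrays correlated above 0.1 in every case. These correlations across probe sets were 0.106, -0.198 and -0.178, so the rule was not met. Whether same-numbered arrays shared a day or batch is not given by the labels and was not tested. The difference of CYP71B27 kept its sign in all 13 alternatives in which it was measured (-2.08 to -0.51) and was past the thresholds in 5 of them. The t-test, the variance trend, the omission of possible cross-hybridizing probe sets and the replicate block give the same difference (-1.57) by construction. Because every transgenic array lay below every WT array, omission of arrays and log2(signal + 16) could not turn its sign either. Only quantile normalization could have done so, and the difference there was -1.49 (log2). The median difference is also left unchanged by the t-test, the variance trend, the omission of possible cross-hybridizing probe sets and the replicate block. None of the other alternatives turned the sign of the median difference. Low signal limits 8 of the 23 genes, and of these all but CYP71B34 had a 95% interval that reached 2-fold. Such wide intervals were not confined to low signal. They were found in 17 of the 23 genes, among them CYP71B5 and CYP71B23 of signal class 3.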

Other observations

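CYP718 (AT2G42850) is a P450 gene outside the naming rule, because its symbol has no subfamily letter. Its signals were 1.06, 2.02 and 1.62 (log2) in 35S::OsHOX24, against 1.45, 1.32 and 1.90 in WT, with overlapping genotypes and a difference of 0.01.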
